A study of Mus musculus with 12 samples.

Results

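The 8 genes described here are the retinoic acid receptor genes Rara, Rarb and Rarg, the retinoid X receptor genes Rxra, Rxrb and Rxrg, and Crabp1 and Crabp2, which encode cellular retinoic acid binding proteins. They were taken by symbol, whatever their values, from the 24391 gene symbols counted in each of 12 RNA-seq libraries. The tissue was the palatal shelf, which grows out from the upper jaw on each side and later fuses with its partner to form the palate, taken at E13.5 from mice of the C57BL/6 strain. There were 3 libraries in each of 4 groups: anterior palate of tamoxifen-treated mice (TAM_AP), anterior palate of controls (con_AP), posterior palate of tamoxifen-treated mice (TAM_PP) and posterior palate of controls (con_PP). The labels name no transgene, Cre driver or mutant allele in any group, and they give no dose, route or timing for tamoxifen, a selective oestrogen receptor modulator. They do not say what the controls received, whether a library held tissue of 1 embryo or of several, or whether libraries came from different litters. The p-values therefore measure the spread between these samples, which may be technical.

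Retinoic acid, made from vitamin A, acts through nuclear receptors: a retinoic acid receptor (RAR) binds DNA as a heterodimer with a retinoid X receptor (RXR). Without ligand the dimer recruits corepressors such as Ncor1, and with ligand it recruits coactivators such as Ncoa1 and Ep300. Crabp2 carries retinoic acid to the receptors in the nucleus, whereas Crabp1 holds it in the cytoplasm and has been linked to its breakdown. An excess of retinoic acid during gestation causes cleft palate in mice.

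Total counts were 39.4 to 73 M per library (the next highest 50.2 M). Levels are given as CPM, each count relative to its library's total after TMM scaling. Shox2, a marker of the anterior palate, had 376 to 579 CPM in TAM_AP and 304 to 360 CPM in con_AP, against 12.7 to 22.9 CPM in TAM_PP and 16.5 to 19.8 CPM in con_PP. Meox2, a marker of the posterior palate, had 8.12 to 9.77 CPM in TAM_AP and 5.34 to 9.51 CPM in con_AP, against 125 to 142 CPM in TAM_PP and 121 to 139 CPM in con_PP. The libraries thus matched their regional labels. The 12 palate mesenchyme markers were all detected, at 11300 to 22300 CPM in sum over the libraries. All 8 retinoid genes passed the filter on low counts, as did 15958 symbols in all. Rxrg had the fewest reads, 39 to 66 per library in the anterior groups.

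Rarb is both a receptor gene and a classical target of retinoic acid, induced through a response element in its promoter. The sequence of that promoter is shown because in the counts as deposited Rarb was the only 1 of the 8 genes that rose under tamoxifen. It covers the 250 bases before the RefSeq start on the minus strand of GRCm38.p6, chr14:16575477-16575726, with the direct repeat in capitals:
Rarb: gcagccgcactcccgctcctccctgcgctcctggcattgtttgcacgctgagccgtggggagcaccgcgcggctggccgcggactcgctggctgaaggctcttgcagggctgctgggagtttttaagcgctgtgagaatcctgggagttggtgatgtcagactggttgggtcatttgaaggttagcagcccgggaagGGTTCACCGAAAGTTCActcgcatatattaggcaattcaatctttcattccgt
A search was made on both strands for any pair of elements, each being AGGTCA or its variant AGTTCA, or else GGGTCA or its variant GGTTCA, in the same direction with 1, 2 or 5 bases between them, from 250 bases before to 50 bases after each RefSeq start. The receptors of thyroid hormone, vitamin D and fatty acids bind variants of the same elements. The Rarb window held a repeat with 5 bases between the elements, at -53 to -37 from the start. Such a repeat was found in 32 of 32851 windows (0.0974%), a repeat with 1 base between in 73 (0.222%) and a repeat with 2 bases between in 88 (0.268%). RefSeq windows were found for 7 of the 8 genes, 14 windows in all, and none of the other windows held a match. A match is a string of letters in a window, and the counts, which are per gene, do not separate transcripts by their start.

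Per kilobase of the longest annotated transcript, the binding proteins were the most abundant of the 8 genes. Crabp1 averaged 282 CPM per kb over the 12 libraries (range 211 to 441) and Crabp2 averaged 136 CPM per kb (120 to 168), without overlap between them. Among the receptors Rarg averaged 78.1 CPM per kb (67.1 to 89.6). Rxrb (64.4, range 43.3 to 99.7), Rxra (47.5, range 43.7 to 51.2) and Rara (43.3, range 29.4 to 53.1 CPM per kb) had lower means; the range of Rxrb spanned that of Rarg and overlapped those of Rxra and Rara, so the order of these receptors was not separated throughout. With coding length in place of transcript length Rarg (168 CPM per kb) and Rxra (166 CPM per kb) were nearly level and Rxra stood above Rxrb (108 CPM per kb). Rarb and Rxrg were far lower, at 5.45 (3.17 to 8.05) and 2.37 CPM per kb (0.326 to 5.21).

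**Figure D1:**
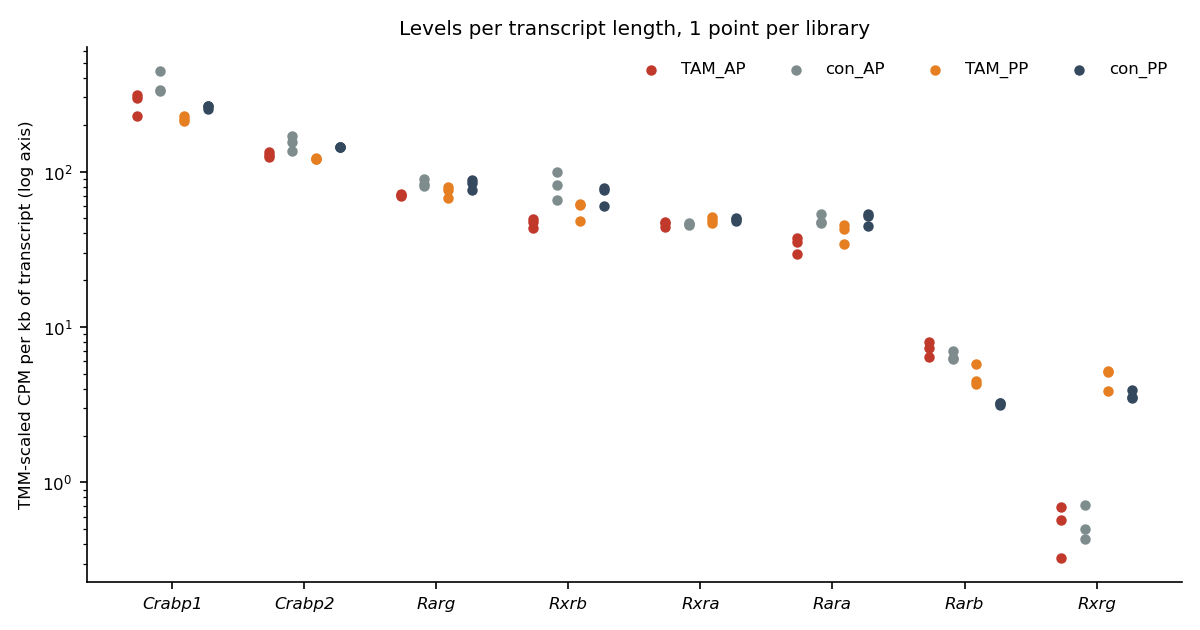
Levels of the 8 genes per kilobase of their longest transcript, on a log axis, with 1 point per library and 3 libraries per group. Crabp1 (211 to 441 CPM per kb) lies above all other genes, and Rxrg separates into an anterior range of 0.326 to 0.716 and a posterior range of 3.5 to 5.21 CPM per kb.

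The receptor families differed in composition. Rarg, the RAR of mesenchyme, skeletal precursors and epidermis, made up 63.3 ± 1.85% of the summed RAR level per length in TAM_AP, 60.3 ± 0.764% in con_AP, 62.1 ± 1.25% in TAM_PP and 61 ± 0.404% in con_PP (SD, n = 3 each). Rara, the broadly expressed RAR, made up 30.2 ± 2.68% in TAM_AP, 35 ± 0.666% in con_AP, 33.7 ± 1.9% in TAM_PP and 36.6 ± 0.557% in con_PP. Rarb supplied the small remainder, 6.5 ± 0.94% in TAM_AP, 4.65 ± 0.471% in con_AP, 4.11 ± 1.13% in TAM_PP and 2.38 ± 0.22% in con_PP. Rxra, the RXR most needed by the mouse embryo, made up 49.3 ± 1.04% of the RXR level in TAM_AP against 36 ± 5.01% in con_AP, and 44.3 ± 2.35% in TAM_PP against 39.8 ± 3.3% in con_PP. The Rxra shares of TAM_AP (48.1 to 49.9%) and con_AP (31.5 to 41.4%) did not overlap. Rxra itself had a mean of 225 CPM in both anterior groups, whereas Rxrb had 123 CPM in TAM_AP and 217 CPM in con_AP. The Rxrb share was 50.1 ± 0.945% in TAM_AP and 63.6 ± 5.16% in con_AP. These shares depend on the length used: per kilobase of coding length Rxra had 161 CPM in both, and Rxrb 78.2 and 138 CPM in the same order. Crabp1 made up 68.3 ± 3.76% of the summed level of Crabp1 and Crabp2 in TAM_AP, 70.6 ± 2.16% in con_AP, 64.5 ± 1.04% in TAM_PP and 64.5 ± 0.666% in con_PP. These shares carry the same trend in length and GC content as the levels.

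The comparison of anterior with posterior palate asked whether retinoid signalling genes differ along the shelf. In tamoxifen-treated and in control mice 2 of the 8 genes, Rarb and Crabp1, were higher in the anterior palate and 1, Rxrg, was lower. Rara, Rarg, Rxra, Rxrb and Crabp2 gave no call in either condition. Over all genes tested, 17.8% were called between the regions under tamoxifen (7.6% as higher anteriorly and 10.2% as lower) and 23.3% in controls (10.2% as higher and 13.1% as lower). Removal of a trend in transcript length and GC content, described with the tamoxifen comparison, left the same 3 genes called, and with it 24.7% of all genes were called under tamoxifen and 26.9% in controls. Regional groups did not overlap for 3 of the 8 genes under tamoxifen and 4 in controls, against 33.1% and 41.2% of all genes. The median log2 fold change of the 8 genes was -0.08 under tamoxifen and 0.06 in controls, and that of all genes was 0.02 in both.

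**Figure D2:**
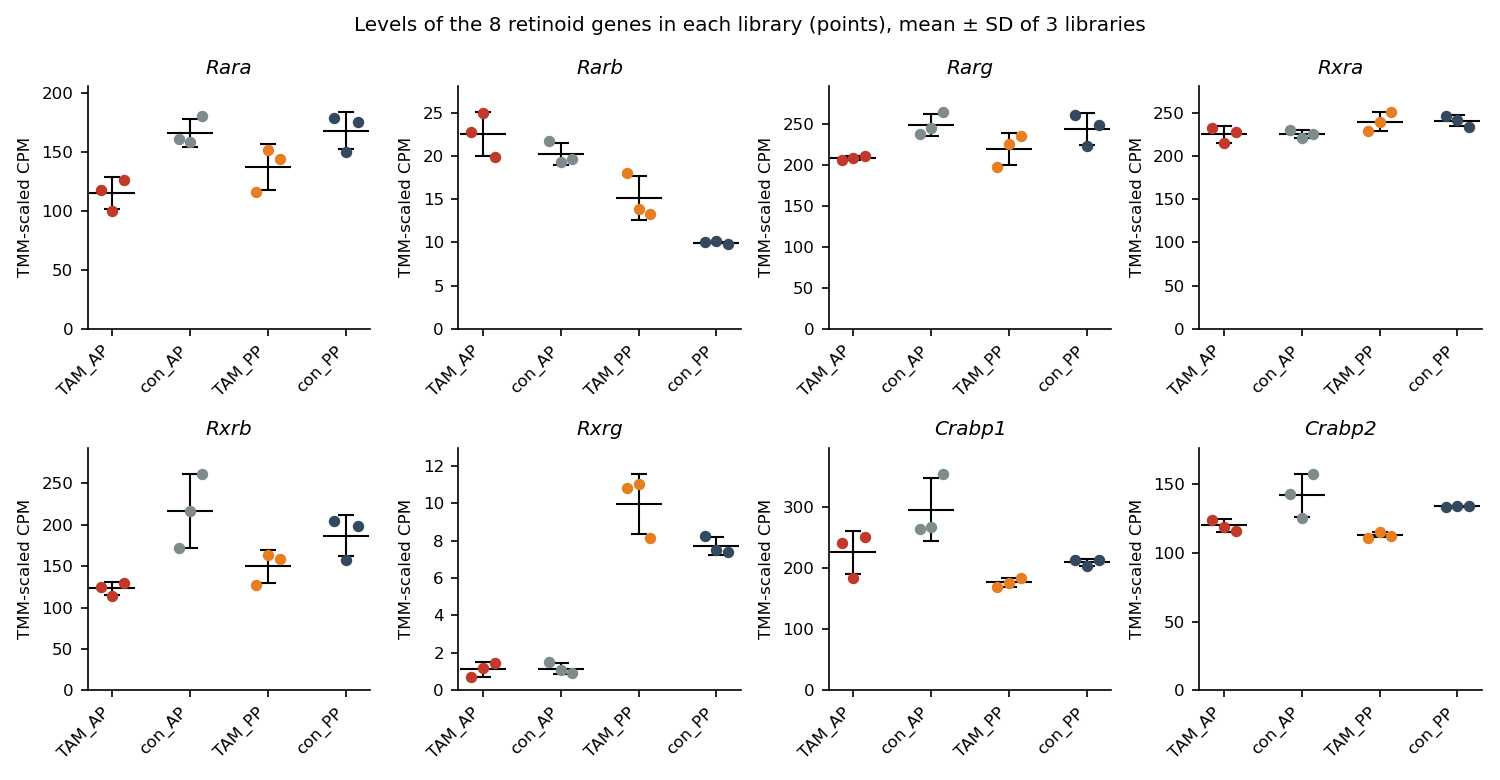
TMM-scaled CPM of each gene in each library (points), with the mean and SD of 3 libraries, on a separate linear axis per gene that starts at 0. Rarb has 19.3 to 25 CPM in the anterior groups and 9.84 to 18 CPM in the posterior groups, and Rxrg has at most 1.51 CPM anteriorly and at least 7.38 CPM posteriorly.

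Rarb had 22.7, 25 and 19.9 CPM in TAM_AP, against 18, 13.9 and 13.3 CPM in TAM_PP. In controls it had 21.7, 19.3 and 19.6 CPM in con_AP, against 10, 10.1 and 9.84 CPM in con_PP. Every anterior library was above every posterior library of its condition, and the posterior controls were the lowest 3 of the 12. The anterior level was 1.49-fold higher under tamoxifen (log2 fold change 0.58, SE 0.12, edgeR adjusted p = 0.0019). In controls it was 2.03-fold higher (log2 fold change 1.02, SE 0.12, edgeR adjusted p = 9.7e-06). Epithelial markers moved the same way: 8 of 12 were higher anteriorly in each condition, with summed levels of 1010 to 1270 CPM in TAM_AP against 673 to 875 CPM in TAM_PP, and of 1020 to 1270 CPM in con_AP against 609 to 675 CPM in con_PP. The part of these cells in the Rarb difference was not tested. In bulk tissue, fewer cells of a type and less RNA per cell cannot be told apart.

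Rxrg, the RXR gene with the narrowest expression, known from skeletal muscle and brain, had 0.687, 1.21 and 1.46 CPM in TAM_AP, against 10.8, 11 and 8.12 CPM in TAM_PP. It had 1.51, 1.06 and 0.913 CPM in con_AP, against 8.25, 7.5 and 7.38 CPM in con_PP. The posterior libraries formed a separate high set. The anterior level was 9.13-fold lower under tamoxifen (log2 fold change -3.19, SE 0.24, edgeR adjusted p = 4.6e-08). It was 6.63-fold lower in controls (log2 fold change -2.73, SE 0.24, edgeR adjusted p = 3.6e-07).

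Skeletal muscle markers divided the libraries in the same way as Rxrg. All 11 tested were lower anteriorly in both conditions, with a median log2 fold change of -6.32 under tamoxifen and -5.32 in controls. Their sum was 8.61 to 17.1 CPM in TAM_AP against 912 to 1230 CPM in TAM_PP, and 12.7 to 34.4 CPM in con_AP against 746 to 847 CPM in con_PP. Myf6, a muscle regulatory factor that did not pass the filter, was at 0 in every anterior library and at most 0.294 CPM in the posterior ones. Of 12 cartilage markers 10 were lower anteriorly in each condition, with sums of 680 to 798 CPM in TAM_AP against 1930 to 2690 CPM in TAM_PP, and of 791 to 865 CPM in con_AP against 2600 to 2880 CPM in con_PP. The part of muscle or cartilage in the Rxrg difference was not tested. Among 11507 genes with a mean of at least 5 CPM (Rxrg itself lies below that), the patterns most like that of Rxrg were those of Cdh18, a cadherin, Pygm, the glycogen phosphorylase of muscle, and Shisa3. Their root mean square differences from Rxrg in centred log2 CPM were 0.35, 0.35 and 0.36 over the 12 libraries, against an SD of 1.6 for Rxrg itself.

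Crabp1 had 240, 184 and 250 CPM in TAM_AP, against 169, 175 and 184 CPM in TAM_PP. It had 264, 267 and 354 CPM in con_AP, against 213, 203 and 212 CPM in con_PP. The control groups did not overlap, whereas the lowest TAM_AP library stood level with the highest TAM_PP library. Crabp1 was 1.41-fold higher anteriorly in controls (log2 fold change 0.49, SE 0.12, edgeR adjusted p = 0.0052). Under tamoxifen it was 1.28-fold higher (log2 fold change 0.35, SE 0.12, edgeR adjusted p = 0.046). That last call was lost in 10 of 12 fits of the counts as deposited that left out 1 library (edgeR adjusted p up to 0.17). The libraries left out in those 10 fits were all 6 posterior ones, con_AP replicates 1 and 2 and TAM_AP replicates 1 and 3. With the trend removed the log2 fold change under tamoxifen was 0.42 (SE 0.08, edgeR adjusted p = 0.00048). In controls it was 0.30 (SE 0.07, adjusted p = 0.0066) with that setting.

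Rxra had 233, 215 and 228 CPM in TAM_AP, against 229, 240 and 251 CPM in TAM_PP. It had 230, 221 and 225 CPM in con_AP, against 246, 242 and 234 CPM in con_PP. It varied least of the 8 genes, with an SD of 0.0653 in log2 CPM over the 12 libraries. The 95% interval of its regional log2 fold change was -0.23 to 0.05 under tamoxifen and -0.23 to 0.04 in controls. Rarg (interval -0.24 to 0.09 under tamoxifen and -0.14 to 0.2 in controls) and Crabp2 (-0.07 to 0.25 and -0.08 to 0.24 in the same order) were also bounded within a narrow range. Rara (-0.49 to -0.03 under tamoxifen, edgeR adjusted p = 0.12, and -0.25 to 0.21 in controls) and Rxrb (-0.59 to 0.01 and -0.08 to 0.51) were less closely bounded.

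**Figure D3:**
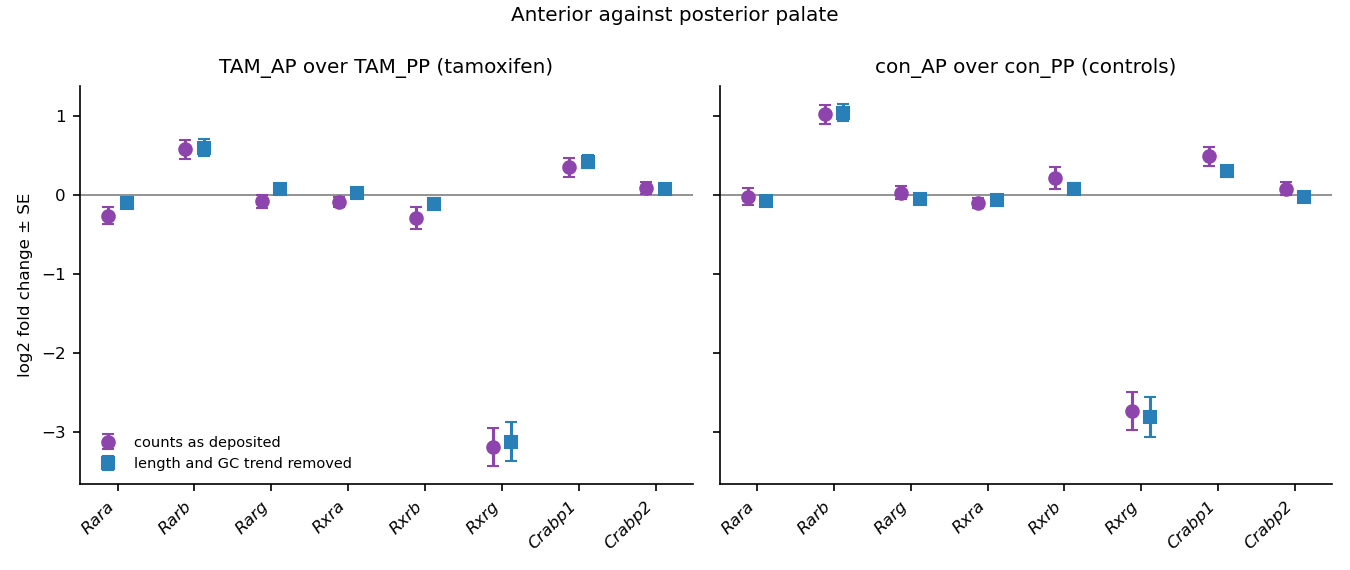
Log2 fold change of anterior over posterior palate with its SE, in tamoxifen-treated mice (left) and controls (right), from the counts as deposited (circles) and with the trend in transcript length and GC content removed (squares). Rarb and Crabp1 lie above 0 and Rxrg below it in both conditions and with both settings; the directions of the uncalled Rarg, Rxra and Crabp2 change between the settings in 1 or both panels.

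The comparison of tamoxifen with control in the anterior palate asked whether the drug moved these genes. In the counts as deposited 5 of the 8 fell and 0 rose: Rara, Rarg, Rxrb, Crabp1 and Crabp2. The tool called 49.7% of all genes tested here, 24% as lower and 25.6% as higher. The groups did not overlap for the same 5 of the 8 genes and for 56.5% of all genes, and the median log2 fold change of the 8 genes was -0.25 against -0.02 for all genes, but 0.10 against 0.01 with the trend described next removed. These falls moved with transcript length and GC content. A trend fitted in both gave -0.44 at the length and GC content of Rarg (2953 bases, 58.8% GC). For Rarb, of similar length (3108 bases) but 47.8% GC, it gave 0.05. With all genes tested divided by transcript length into 4 equal bins, the bin with the shortest transcripts (median 1488 bases) had a median log2 fold change of -0.33, and the bin with the longest (median 6261 bases) one of 0.43. With that trend removed per library, 2 of the 8 genes (Rarg and Crabp1) were called higher and 1 (Rxrb) lower, against 32.8% of all genes called, 16.1% as higher and 16.7% as lower.

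Rxrb, which encodes an RXR found in most tissues, had 125, 114 and 130 CPM in TAM_AP, against 172, 217 and 262 CPM in con_AP. All 3 tamoxifen libraries were below all 3 controls, and the controls differed widely among themselves. It fell 1.77-fold (log2 fold change -0.82, SE 0.14, edgeR adjusted p = 0.00027). It was the only 1 of the 8 genes still called lower with the trend removed, where the log2 fold change was -0.26 (SE 0.07, edgeR adjusted p = 0.0097). The fitted trend for a transcript of its 2627 bases and 61.4% GC was -0.55.

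Rara had 118, 99.5 and 126 CPM in TAM_AP, against 161, 158 and 180 CPM in con_AP. The groups did not overlap. The fall was 1.45-fold (log2 fold change -0.54, SE 0.11, edgeR adjusted p = 0.00073), and with the trend removed the log2 fold change was -0.14 and no longer passed (adjusted p = 0.072).

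Rarg, Crabp1 and Crabp2 also fell, but each had the opposite direction once the trend was removed. Rarg had 206, 209 and 211 CPM in TAM_AP, against 238, 245 and 265 CPM in con_AP. Its log2 fold change was -0.26 (SE 0.08, edgeR adjusted p = 0.014) as deposited and 0.18 (SE 0.06, adjusted p = 0.019) with the trend removed. Crabp1 had 240, 184 and 250 CPM in TAM_AP, against 264, 267 and 354 CPM in con_AP. Its log2 fold change was -0.39 (SE 0.12, edgeR adjusted p = 0.01) as deposited and 0.23 (SE 0.07, adjusted p = 0.029) with the trend removed. Crabp2 had 124, 119 and 116 CPM in TAM_AP, against 143, 125 and 157 CPM in con_AP, with a log2 fold change of -0.24 (SE 0.08, edgeR adjusted p = 0.014) as deposited and 0.04 (adjusted p = 0.6) with the trend removed. The 2 Crabp transcripts are the shortest of the 8, at 802 and 931 bases. Without con_AP replicate 3 the calls of Rarg, Crabp1 and Crabp2 were lost (edgeR adjusted p = 0.059, 0.078 and 0.075), which left 2 of the 8 genes called.

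Rxra, Rarb and Rxrg gave no call in the anterior palate. The log2 fold change of Rxra was 0 with a 95% interval of -0.14 to 0.14, and that of Rarb was 0.16 with an interval of -0.09 to 0.41 (edgeR adjusted p = 0.28). Rxrg, at about 1 CPM in both groups, had a 95% interval of -0.65 to 0.47, and a change within it was not detectable in these libraries.

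**Figure D4:**
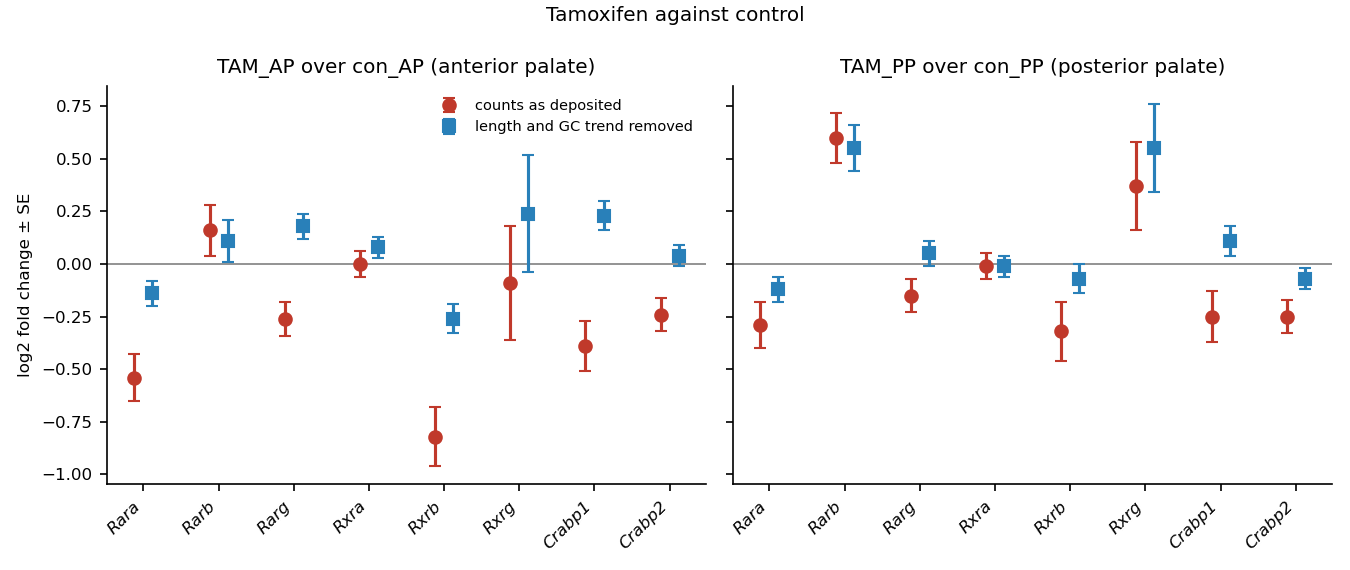
Log2 fold change of tamoxifen over control with its SE, in the anterior (left) and posterior palate (right), from the counts as deposited (circles) and with the trend in transcript length and GC content removed (squares). In the anterior palate Rarg, Crabp1 and Crabp2 lie below 0 as deposited (-0.26, -0.39 and -0.24) and above 0 with the trend removed (0.18, 0.23 and 0.04), and in the posterior palate Rarb lies above 0 with both settings (0.60 and 0.55).

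In the posterior palate 1 of the 8 genes, Rarb, rose under tamoxifen and 1, Crabp2, fell. Over all genes tested 29% were called, 17.3% as higher and 11.7% as lower. The median log2 fold change of the 8 genes was -0.20, against 0.02 for all genes, and with the trend removed it was 0.02. With the length and GC trend removed Rarb was the only 1 of the 8 called, against 17.9% of all genes, 7.71% as higher and 10.2% as lower.

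Rarb had 18, 13.9 and 13.3 CPM in TAM_PP, against 10, 10.1 and 9.84 CPM in con_PP. The 3 tamoxifen libraries were all above the 3 controls, which lay close together, and TAM_PP replicate 1 was the highest. Rarb rose 1.51-fold (log2 fold change 0.60, SE 0.12, edgeR adjusted p = 0.0027). With the trend removed the log2 fold change was 0.55 (SE 0.11, adjusted p = 0.003). The call held in all 12 fits that left out 1 library, with log2 fold changes of 0.43 to 0.68.

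The exons of Rarb share 1793 bases with those of Top2b, a topoisomerase gene on the opposite strand, in the GENCODE annotation. Because the sources used here do not give the strand setting of the counting, reads of the 2 genes in that stretch cannot be told apart. Top2b had 345 ± 48.1 CPM in TAM_AP against 219 ± 12.3 CPM in con_AP, and 298 ± 17.8 CPM in TAM_PP against 233 ± 18.1 CPM in con_PP (SD, n = 3 each). Its log2 fold change under tamoxifen was 0.66 in the anterior palate (edgeR adjusted p = 4.1e-05), where Rarb gave no call, and 0.36 in the posterior palate (adjusted p = 0.011). With the trend removed both calls ended and the direction turned (-0.13 and -0.12, adjusted p = 0.11 and 0.2). Between the regions Top2b gave no call as deposited, with a log2 fold change of 0.21 under tamoxifen and of -0.09 in controls. With the trend removed it was called higher anteriorly in both, the direction of Rarb, at 0.20 (adjusted p = 0.027) under tamoxifen and 0.21 (adjusted p = 0.017) in controls. The part of Top2b reads in the Rarb counts was not tested. Of 12 epithelial markers 5 were higher and 0 lower in TAM_PP than in con_PP, in a sum of 673 to 875 CPM against 609 to 675 CPM (3 and 0 with the trend removed); their part in the rise of Rarb was not tested.

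Crabp2 had 111, 115 and 112 CPM in TAM_PP, against 133, 134 and 134 CPM in con_PP, without overlap. Its log2 fold change was -0.25 (SE 0.08, edgeR adjusted p = 0.022), and with the trend removed it was -0.07 (adjusted p = 0.4). The call was lost without con_PP replicate 1, 2 or 3 or without TAM_PP replicate 3 (edgeR adjusted p up to 0.067).

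The other 6 genes gave no call in the posterior palate. Rara had 116, 152 and 144 CPM in TAM_PP, against 179, 150 and 175 CPM in con_PP, and a log2 fold change of -0.29 (SE 0.11, edgeR adjusted p = 0.055) that stood just outside the threshold. Crabp1 had 169, 175 and 184 CPM in TAM_PP, against 213, 203 and 212 CPM in con_PP. These 2 groups did not overlap, as was the case for 48% of all genes, and the log2 fold change was -0.25 (SE 0.12, edgeR adjusted p = 0.12) as deposited and 0.11 with the trend removed. Rxrb had 127, 163 and 159 CPM in TAM_PP, against 204, 158 and 198 CPM in con_PP, with a log2 fold change of -0.32 (SE 0.14, edgeR adjusted p = 0.1). Rarg had 198, 226 and 236 CPM in TAM_PP, against 261, 223 and 249 CPM in con_PP, with a log2 fold change of -0.15 (edgeR adjusted p = 0.16) as deposited and 0.05 with the trend removed. Rxrg had a log2 fold change of 0.37 (SE 0.21, edgeR adjusted p = 0.19), beside muscle marker sums of 912 to 1230 CPM in TAM_PP and 746 to 847 CPM in con_PP. For Rxra the log2 fold change was -0.01, with a 95% interval of -0.14 to 0.13.

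Whether the response to tamoxifen differed between the regions was tested as an interaction, which is also the test of whether the regional difference changed under the drug. It called 0 of the 8 genes and 0 of all genes tested by edgeR, with 2110 genes (13.2%) at an unadjusted p under 0.05. limma-voom also called 0 genes (2036 at an unadjusted p under 0.05), and DESeq2 called 179 (2252), with none of the 8 among them. Of the 8 genes Rarb (anterior minus posterior log2 difference -0.44, SE 0.17) and Rxrb (-0.50, SE 0.20) came closest, at an edgeR adjusted p = 0.31 and 0.33. The rise of Rarb in the posterior palate and the fall of Rxrb in the anterior palate were therefore not shown to belong to 1 region.

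Genes that supply and clear retinoic acid also differed between the regions. Of 14 supply genes tested 5 were higher and 1 lower in TAM_AP than in TAM_PP (5 and 2 with the trend removed). In con_AP 6 were higher and 3 lower than in con_PP (5 and 3 with the trend removed). Over all genes 17.8% were called between the regions under tamoxifen and 23.3% in controls, and 24.7% and 26.9% with the trend removed. Stra6, the receptor that takes up retinol bound to its carrier, had 39.9 ± 7.79 CPM in TAM_AP against 14.4 ± 1.42 CPM in TAM_PP, and 42 ± 7.28 CPM in con_AP against 13.6 ± 0.326 CPM in con_PP (log2 fold changes 1.47 and 1.63, edgeR adjusted p = 6.1e-07 and 2.4e-07). Adh1, an alcohol dehydrogenase, was low but higher anteriorly under tamoxifen, at 2.57 ± 0.495 CPM in TAM_AP and 0.817 ± 0.201 CPM in TAM_PP. It was also higher anteriorly in controls (log2 fold changes 1.66 and 1.67, edgeR adjusted p = 0.00027 and 0.00031). Dhrs3, which turns retinaldehyde back into retinol, was higher anteriorly in controls (41.5 ± 5.1 CPM in con_AP and 21.2 ± 1.76 CPM in con_PP). Under tamoxifen it was higher as well (26.7 ± 2.33 CPM in TAM_AP and 19.7 ± 0.971 CPM in TAM_PP, log2 fold change 0.44, edgeR adjusted p = 0.0054). Of the 3 clearing enzymes of the Cyp26 family, 2 were higher in TAM_AP than in TAM_PP and all 3 in con_AP than in con_PP. With the trend removed 2 were called higher in each condition. In controls the log2 fold change of Cyp26a1 was 0.59 (edgeR adjusted p = 0.025) as deposited and 0.49 (adjusted p = 0.11) with the trend removed. Cyp26b1 had 261 ± 22.3 CPM in TAM_AP against 99.5 ± 10.4 CPM in TAM_PP, and 213 ± 2.75 CPM in con_AP against 89.1 ± 7.77 CPM in con_PP. The median regional log2 fold change was 0.20 under tamoxifen and 0.49 in controls for the supply genes, and 1.39 and 1.26 for the Cyp26 genes.

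Under tamoxifen 2 of the 14 supply genes rose and 3 fell in the anterior palate (1 and 3 with the trend removed). Over all genes tested 49.7% were called there and 29% in the posterior palate, and 32.8% and 17.9% with the trend removed. Rdh11, a retinaldehyde reductase, rose to 28.5 ± 0.658 CPM in TAM_AP, against 18.4 ± 1.19 CPM in con_AP (log2 fold change 0.63, edgeR adjusted p = 5.6e-05). Dhrs3 fell to 26.7 ± 2.33 CPM in TAM_AP, against 41.5 ± 5.1 CPM in con_AP (log2 fold change -0.64, edgeR adjusted p = 9.5e-05). Both calls held with the trend removed (log2 fold changes 0.52 and -0.42). Among the Cyp26 genes Cyp26b1 rose in the anterior palate (log2 fold change 0.29, edgeR adjusted p = 0.012), and Cyp26c1 gave a log2 fold change of -0.27 (adjusted p = 0.26). With the trend removed Cyp26b1 gave 0.42 (edgeR adjusted p = 0.00036), and Cyp26c1 turned to 0.43 without a call (adjusted p = 0.17). In the posterior palate 1 supply gene rose, Rdh11 (28.9 ± 3.07 CPM in TAM_PP and 23.2 ± 1.77 CPM in con_PP, log2 fold change 0.31, edgeR adjusted p = 0.02). That call was lost with the trend removed (0.23, adjusted p = 0.069), where 0 supply genes were higher and 1 lower. Rdh10, the retinol dehydrogenase of the embryo, had a log2 fold change of 0.23 (adjusted p = 0.081) there. Of the Cyp26 genes 0 were called posteriorly, with log2 fold changes of 0.33 for Cyp26a1 (edgeR adjusted p = 0.17) and 0.16 for Cyp26b1 (adjusted p = 0.19).

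Of 6 other binding proteins of the family that holds Crabp1 and Crabp2, 1 rose and 2 fell in the anterior palate under tamoxifen. With the trend removed 0 rose and 1 fell there, and 0 were called in the posterior palate with either setting. Of all genes 49.7% were called anteriorly and 29% posteriorly, and 32.8% and 17.9% with the trend removed. Fabp3, the fatty acid binding protein of heart and muscle, fell to 2.83 ± 1.39 CPM in TAM_AP, against 5.08 ± 0.343 CPM in con_AP (log2 fold change -0.85, edgeR adjusted p = 0.016), and gave no call with the trend removed (-0.40, adjusted p = 0.3). In the posterior palate Rbp7, under 1 CPM in every group, and Fabp7 had log2 fold changes of -1.71 (edgeR adjusted p = 0.069) and 0.46 (adjusted p = 0.092). Between the regions 1 was higher and 2 (Fabp3 and Fabp7) lower in TAM_AP than in TAM_PP, and in controls 1 was higher and 0 lower in con_AP than in con_PP. Of all genes 17.8% were called between the regions under tamoxifen and 23.3% in controls.

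Cofactors of the receptors are set beside the share of all genes called, which was 49.7% in the anterior and 29% in the posterior palate as deposited, and 32.8% and 17.9% with the trend removed. Of 9 coactivators 7 rose and 1 fell in the anterior palate, 3 and 1 with the trend removed, and 6 rose and 1 fell in the posterior palate, 2 and 0 with the trend removed. Ncoa2, a p160 coactivator, had 121 ± 4.08 CPM in TAM_AP against 60.4 ± 9.7 CPM in con_AP, and 120 ± 3.7 CPM in TAM_PP against 72.9 ± 1.64 CPM in con_PP (log2 fold changes 1 and 0.71, and 0.43 and 0.35 with the trend removed). Ep300, a histone acetyltransferase, rose in the anterior and the posterior palate (log2 fold changes 0.94 and 0.58, edgeR adjusted p = 4.2e-06 and 0.0011, and 0.45 and 0.25 with the trend removed). Ncoa1 also rose in both (0.49 and 0.43, edgeR adjusted p = 2.9e-05 and 6e-04), but with the trend removed it gave -0.02 and 0.10 and no call. The coactivator median was 0.60 in the anterior and 0.37 in the posterior palate, and 0.17 and 0.08 with the trend removed.

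Of 10 corepressors 6 rose and 3 fell in the anterior palate, 3 and 4 with the trend removed, and 4 rose and 3 fell in the posterior palate, 3 and 3 with the trend removed. Lcor, a ligand-dependent corepressor, had 4.53 ± 0.16 CPM in TAM_AP against 0.919 ± 0.214 CPM in con_AP, and 4.5 ± 0.912 CPM in TAM_PP against 1.59 ± 0.307 CPM in con_PP (log2 fold changes 2.30 and 1.5, edgeR adjusted p = 2.2e-06 and 0.00037). Gps2, a subunit of the complex around Ncor1, fell in the anterior and the posterior palate (log2 fold changes -0.65 and -0.33, edgeR adjusted p = 2.7e-06 and 0.0022). With the trend removed it gave -0.15 and -0.06 and no call. Tbl1x, another subunit of that complex, rose in both (log2 fold changes 1.15 and 0.69, edgeR adjusted p = 3.6e-06 and 0.0011, and 0.74 and 0.42 with the trend removed). Between the regions 0 coactivators were higher and 1 lower in TAM_AP than in TAM_PP, and 0 and 3 in con_AP against con_PP, while 0 corepressors were called under tamoxifen and 1 was higher and 3 lower in controls. The share of all genes called between the regions was 17.8% under tamoxifen and 23.3% in controls. Ncoa1 was the coactivator lower in both conditions (log2 fold changes -0.54 and -0.61, edgeR adjusted p = 1.5e-05 and 5.1e-06).

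Other nuclear receptors that pair with RXR moved in both directions. Of 11 tested, 2 rose and 2 fell in the anterior palate (2 and 0 with the trend removed) and 1 rose and 1 fell in the posterior palate (1 and 0). The share of all genes called was 49.7% in the anterior and 29% in the posterior palate, and 32.8% and 17.9% with the trend removed. Ppara, a fatty acid receptor, rose in both (log2 fold changes 0.85 and 0.88, edgeR adjusted p = 0.0028 and 0.0072, and 0.91 and 0.89 with the trend removed). Nr1h2, an oxysterol receptor, fell in both (log2 fold changes -0.45 and -0.29, edgeR adjusted p = 0.00038 and 0.018), but gave no call with the trend removed (0.13 and -0.01). Between the regions 1 was higher and 2 lower in each condition, against 2 and 1 under tamoxifen and 1 and 3 in controls with the trend removed. All genes had shares called of 17.8% under tamoxifen and 23.3% in controls, and 24.7% and 26.9% with the trend removed. Vdr, the vitamin D receptor, was lower anteriorly under tamoxifen and in controls (log2 fold changes -1.1 and -1.07, edgeR adjusted p = 0.019 and 0.024). Thra, a thyroid hormone receptor, was also lower in TAM_AP than in TAM_PP (log2 fold change -0.27), but not with the trend removed (-0.11, adjusted p = 0.3). Its anterior fall under tamoxifen (-0.25, edgeR adjusted p = 0.013) turned into a called rise with the trend removed (0.27, adjusted p = 0.01). In controls Nr4a2 was lower in con_AP than in con_PP. Ppara was higher anteriorly under tamoxifen and in controls (log2 fold changes 0.69 and 0.73, edgeR adjusted p = 0.024 and 0.022).

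A further 14 genes tested are known to respond to retinoic acid, some by induction and some, such as Tbx1, by repression. Because the list mixes induced and repressed genes, its counts and median give no direction of retinoid response. Under tamoxifen 2 rose and 6 fell in the anterior palate (0 and 5 with the trend removed). In the posterior palate 2 rose and 0 fell (1 and 3 with the trend removed). Of all genes 49.7% were called anteriorly and 29% posteriorly, and 32.8% and 17.9% with the trend removed. Tbx1, a T-box gene of the pharyngeal arches and palate, fell to 30 ± 5.58 CPM in TAM_AP, against 61 ± 9.89 CPM in con_AP (log2 fold change -1.02, edgeR adjusted p = 0.00014, and -0.42 with the trend removed). Meis1, a homeobox gene, had a log2 fold change of 0.40 there (edgeR adjusted p = 0.00075) and the opposite direction with the trend removed (-0.28, adjusted p = 0.0086). In the posterior palate Tshz1 and Nr2f2 rose (log2 fold changes 0.27 and 0.19, edgeR adjusted p = 0.013 and 0.04), and neither was called with the trend removed. Between the regions 4 were higher and 4 lower in TAM_AP than in TAM_PP, and 2 were higher and 4 lower in con_AP than in con_PP (4 and 4, and 5 and 3, with the trend removed). Beside these, 17.8% of all genes were called under tamoxifen and 23.3% in controls, and 24.7% and 26.9% with the trend removed. Nr2f2, an orphan nuclear receptor, was lower anteriorly, with 60.2 ± 0.965 CPM in TAM_AP against 156 ± 8.86 CPM in TAM_PP, and 73.2 ± 2.52 CPM in con_AP against 137 ± 5.17 CPM in con_PP. The median log2 fold change of these genes under tamoxifen was -0.29 in the anterior and 0.09 in the posterior palate, beside 0.37 and 0.09 for the corepressors, -0.13 and -0.12 for the partners of RXR, -0.02 and 0.02 for the supply genes, and -0.02 and 0.02 for all genes tested. With the trend removed these medians were -0.35 and -0.01 for the genes that respond to retinoic acid, -0.07 in both for the corepressors, 0.13 and -0.03 for the partners of RXR, and 0.18 and 0.06 for the supply genes.

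Markers of other cells in the shelves are given because the tissue was not sorted. Under tamoxifen 0 of 11 muscle markers rose and 5 fell in the anterior palate, and 1 rose and 0 fell in the posterior palate. Of 12 palate mesenchyme markers 3 rose and 5 fell anteriorly and 3 rose and 2 fell posteriorly, and of 12 epithelial markers 5 rose and 1 fell anteriorly. Of 12 cartilage markers 4 rose and 2 fell anteriorly and 3 rose and 0 fell posteriorly. Among 10 neuronal markers 4 rose anteriorly and 3 posteriorly, and among 8 endothelial markers 4 rose and 3 fell anteriorly and 4 rose and 1 fell posteriorly. Of 6 Schwann cell markers 1 rose and 2 fell anteriorly and 2 rose posteriorly, of 10 leukocyte markers 3 rose and 1 fell anteriorly and 2 rose posteriorly, and of 4 erythroid markers tested 1 fell anteriorly. The adult globin genes Hba-a2, Hbb-bt and Hbb-bs were listed at 0 in every library, beside a sum of 593 to 1230 CPM for the 8 erythroid markers. Whether the counting could assign reads to these symbols was not tested. Once the trend was removed, 0 muscle markers rose and 1 fell anteriorly and 4 rose and 0 fell posteriorly, and 1 mesenchyme marker rose and 0 fell anteriorly and 2 rose and 1 fell posteriorly. The same setting gave 3 epithelial markers higher and 0 lower in each region, and 2 cartilage markers higher and 1 lower anteriorly and 0 of either kind posteriorly. It gave 2 neuronal markers higher anteriorly and 1 posteriorly, and 3 endothelial markers higher and 1 lower anteriorly and 3 and 0 posteriorly. Of the Schwann cell markers 2 were higher and 1 lower anteriorly and 3 and 0 posteriorly. Leukocyte markers gave 4 and 0 anteriorly and 2 and 0 posteriorly, and 0 erythroid markers were called. The share of all genes called was 49.7% anteriorly and 29% posteriorly, and 32.8% and 17.9% with the trend removed. The part of these cells in the changes of the 8 retinoid genes was not tested.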

How the data were processed

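The deposited files hold raw counts, 1 whole number per gene symbol and library, not normalized by the authors. The submitters' processing notes name HISAT2, StringTie and build mm9; versions, annotation, counting program and strand are not given there. Of counts between 1 and 100, 57.1 to 60.1% were even, so both mates of a read pair may have been counted. Within each group no library was a duplicate of another.

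Counts were tested in R 4.3.3 with edgeR 4.0.16: filterByExpr, TMM scaling, a robust quasi-likelihood fit of the 4 group means on all 12 libraries, and Benjamini-Hochberg adjustment over the 15958 genes tested, called at 0.05. Rises and falls mean calls. Folds are relative to TMM scaling. Lengths, GC content and overlaps came from GENCODE (longest transcript per symbol; 15851 tested genes matched) and promoters from RefSeq (GRCm38.p6). These differ from the authors' build, so no coordinates were mixed. The trend in length and GC (natural splines, 4 degrees of freedom each) was removed per library as an offset. The alternatives were DESeq2 1.42.0, limma-voom (limma 3.58.1), other scalings, filters and fits, thinning, halved counts, the replicate block, and leaving out each library. The code was tested on simulated data. Same-numbered libraries did not deviate together, so numbers were not taken as pairs.

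The 8 genes and all lists were chosen with earlier results of these data known. All 8 genes are named in every comparison. From each pathway list the 2 genes with the smallest adjusted p per comparison could be named, and for a gene with an SD of at least 0.5 in log2 CPM the 3 genes of most similar pattern. Cell type marker lists are given as counts and summed CPM; other names were chosen after their values were seen. A few names that this rule gives are left out here.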

Additional observations from a re-analysis of the deposited data

How the results depend on the processing

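The regional calls of Rarb and Rxrg and the posterior rise of Rarb under tamoxifen kept direction and call under every alternative run, including each library left out. The anterior falls under tamoxifen depended on the length and GC trend, whose cause was not tested. With the trend removed 5230 genes and 3 of the 8 were called in the anterior palate, and with the replicate block added 5033 and 3; the log2 fold changes turned to 0.18 in both for Rarg, 0.23 and 0.22 for Crabp1, and 0.04 in both for Crabp2. In the posterior palate the same settings called 2852 and 2724 genes and 1 of the 8 in each, whereas the libraries of the compared groups alone called 5 of the 8 (Rara, Rxrb and Crabp1 added); that setting ended the anterior call of Crabp2 (adjusted p = 0.05). Rara was also called there with total counts, a stricter filter, DESeq2 (adjusted p = 0.038) and halved counts. The interaction called 179 genes with DESeq2 and 1 gene with the trend removed and the replicate block.

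With 1 library left out, the anterior tamoxifen comparison called 6553 to 7961 genes and 2 to 5 of the 8. The posterior one called 2714 to 5485 genes and 1 to 4 of the 8, the interaction 0 to 6 genes, and the regional comparisons 2090 to 3089 genes and 2 to 3 of the 8 under tamoxifen, and 2483 to 4342 genes and 3 of the 8 in controls. Under tamoxifen the regional call of Crabp1 was lost without a filter (adjusted p = 0.052), with a stricter one (0.055), with limma-voom (0.056) and with the compared groups alone (0.073).

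Same-numbered libraries correlated at -0.2 to 0.34. Each library was also set against the 3 libraries of each other group, and in 14 of these 36 comparisons it correlated best with its own number. The replicate block called 7800 genes in the anterior and 4561 in the posterior tamoxifen comparison (5 and 3 of the 8); the gain was Rara posteriorly, at an adjusted p = 0.047. Rxrg had 39 to 66 reads per library anteriorly and 314 to 553 posteriorly, with SEs of 0.27 and 0.21 for its tamoxifen log2 fold change.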
